A study of Rattus norvegicus with 4 samples.

Results

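The genes described here are 9 of the 32402 features counted in 4 rat kidney sections: Kap, Slc7a13, Slc7a12, Slco1a1, Slco1a6, Cyp2c11, Ros1, Iqch and Acy3. They were chosen by measured values of the same sections, namely the folds of the PAN section against the healthy section and of the PAN_LS-FMD section against the PAN section in cortical spots, where they stood among the genes furthest down in PAN or furthest up in PAN_LS-FMD. There was no numerical threshold for membership. The levels in those comparisons are therefore given as a description and carry no evidence of their own. Gene expression was measured with the Visium assay, which captures RNA on a grid of spots under a 10 µm frozen section. A spot can hold several cells of different types. All animals were Sprague-Dawley rats, and each of the 4 groups was represented by 1 section.

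The PAN group had been injected with puromycin aminonucleoside, a toxin of podocytes that gives rats a nephrotic kidney disease, was fed freely, and was analysed at 5 months from injection, which was 6 weeks from the end of treatment. Rats of the PAN_LS-FMD group were injected likewise and analysed at the same times, but went through 6 cycles of a fasting-mimicking diet low in salt. The healthy group had no treatment. The healthy_LS-FMD group had no toxin, went through 1 diet cycle and was refed for 72 h, so its diet exposure was not matched to that of the PAN_LS-FMD group. With 1 section per group there were no tests, every interval below is a 95% interval of counting error, and a difference between groups is a difference between these sections. After leaving out spots under 500 UMIs (unique molecular identifiers, each 1 captured RNA molecule), the sections held 2187 to 2866 spots and 24924170 to 58568499 UMIs. The healthy section was counted with Space Ranger 2.0.1 and the other 3 with 1.2.1, so each comparison with the healthy section carries that difference. The Y-linked genes Eif2s3y and Kdm5d were present in all 4 sections.

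The proximal tubule reclaims most of what the glomerulus filters, and its last segment, S3, runs straight through the outer stripe of the outer medulla. S3 cells carry their own set of transporters for amino acids and organic anions and their own detoxifying enzymes, several of which differ between male and female rodents. When proximal tubule cells are injured they lose such differentiated products and make others, among them osteopontin (Spp1) and KIM-1 (Havcr1). Kap encodes the kidney androgen-regulated protein, a proximal tubule product whose mouse gene responds to androgen. Slc7a13 and Slc7a12 encode amino acid transporters, and Slc7a13 works at the S3 brush border together with the heavy chain rBAT, the product of Slc3a1. Slco1a1 and Slco1a6 encode organic anion transporters, Cyp2c11 a steroid-hydroxylating cytochrome P450 known as a male-specific enzyme of rat liver, Ros1 a receptor tyrosine kinase, Iqch a protein with a calmodulin-binding IQ motif, and Acy3 an aminoacylase of the proximal tubule.

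The stretch of 250 bases before the annotated start is shown for 4 of the 9 genes, because these are the genes whose levels in the PAN_LS-FMD section set the results apart: Kap, which stood at the healthy level there, Slc7a12, which stood above it, and Cyp2c11 and Ros1, which stood below it. The sequences come from RefSeq on the build GRCr8, and 8 of the 9 genes were matched (Slc7a13 was not). Coordinates on GRCr8 are chr4:168409033-168409282 on the minus strand for Kap, chr2:88868104-88868353 on the minus strand for Slc7a12, chr1:246174966-246175215 on the plus strand for Cyp2c11 and chr20:32126548-32126797 on the minus strand for Ros1. Each is written 5′ to 3′ on the strand of the gene, and capitals mark the letters of the motifs named below.
Kap: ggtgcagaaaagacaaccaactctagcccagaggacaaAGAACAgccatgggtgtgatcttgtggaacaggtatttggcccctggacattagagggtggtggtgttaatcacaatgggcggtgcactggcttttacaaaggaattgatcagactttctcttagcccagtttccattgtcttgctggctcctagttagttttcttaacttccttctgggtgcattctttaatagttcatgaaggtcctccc
Slc7a12: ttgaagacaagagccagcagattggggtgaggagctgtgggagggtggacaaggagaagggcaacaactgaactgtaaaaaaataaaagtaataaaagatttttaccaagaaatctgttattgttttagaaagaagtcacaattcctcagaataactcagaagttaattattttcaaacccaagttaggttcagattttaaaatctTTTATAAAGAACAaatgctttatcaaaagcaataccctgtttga
Cyp2c11: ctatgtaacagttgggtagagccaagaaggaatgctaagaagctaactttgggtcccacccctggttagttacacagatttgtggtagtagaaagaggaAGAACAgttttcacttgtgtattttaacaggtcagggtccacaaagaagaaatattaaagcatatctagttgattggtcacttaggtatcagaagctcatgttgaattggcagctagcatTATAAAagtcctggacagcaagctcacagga
Ros1: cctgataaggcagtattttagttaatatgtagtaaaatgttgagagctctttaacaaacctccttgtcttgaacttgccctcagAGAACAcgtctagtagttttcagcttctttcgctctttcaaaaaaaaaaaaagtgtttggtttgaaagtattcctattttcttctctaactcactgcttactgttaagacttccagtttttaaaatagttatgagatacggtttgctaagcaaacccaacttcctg

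Motifs were searched on both strands by their letters. AGAACA, the core of sites bound by the glucocorticoid receptor, was found before 5 of the 8 genes (Kap, Slc7a12, Slco1a1, Cyp2c11 and Ros1) and before 17.5% of 33469 promoters of the same length. In Kap it lay 212 bases before the start, in Slc7a12 37, in Cyp2c11 151 and in Ros1 166. TATAAA was found before Slc7a12 and Cyp2c11 and before 12.9% of all promoters. In Slc7a12 it overlapped itself on the other strand and the AGAACA beside it. CAAAGTCCA (HNF4) and TTCNNNGAA (STAT) were found before none of the 8, and before 0.338% and 7.67% of all promoters. A match of 6 letters is a description of the sequence and shows no binding.

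Spots were assigned to zones from clusters computed without the 9 genes and from marker lists that held none of them, so no zone was set by the 9 genes themselves. Genes that vary along with them were still used, and several of the 9 were among the leading genes of outer stripe clusters. The zones were cortex, outer stripe, medulla and a blood-rich zone assigned by red cell markers. The blood-rich zone held 277, 110, 334 and 80 spots in the healthy, healthy_LS-FMD, PAN and PAN_LS-FMD sections. Its name is that of the marker list and does not describe all of its spots. In PAN, 260 of the 334 formed a cluster led by Igh-6, Ccl21 and Ccl19, 57 one led by Myh11 and Actg2, and 17 one led by haemoglobin genes. In healthy, 131 of the 277 formed a cluster led by Ccl21 and Myh11. Levels of the 9 genes are not given for the blood-rich zone. The outer stripe, assigned by S3 markers, made up 35.4% of the spots in the healthy section, 21.6% in the healthy_LS-FMD section, 26.5% in the PAN section and 25.3% in the PAN_LS-FMD section. These shares depended on the method. In the same order they were 39.9, 33.0, 43.4 and 50.1% with the sections clustered together. With each spot assigned alone they were 17.0, 19.2, 11.3 and 15.5%. The medullary share of PAN_LS-FMD was 29.3% in the main setting and 0.320% with the sections clustered together. Zone levels below are from the main setting. In the healthy section 8 of the 9 genes were at least 1.5-fold higher in the outer stripe than in the cortex, with a counting interval of the ratio above 1, beside 9.27% of all genes measured in these zones. Levels are given in CPM, the UMIs of a gene per 1000000 UMIs of the same spots. Ros1 was the exception, at 14.3 CPM in the outer stripe, 13.7 in the cortex and 11.96 in the medulla of the healthy section. Over all 4 sections the outer stripe level was the higher one in 34 of 36 pairs of a gene and a section, and the other 2 pairs were Ros1 in PAN and in PAN_LS-FMD. The medullary zone also held spots of the outer medulla with much S3 RNA (Kap at 15860 CPM in the healthy section), so it is no zone free of S3. The lowest Kap level of a cluster without the toxin was 2695 CPM (2624 to 2768), in 272 medullary spots of the healthy_LS-FMD section whose highest marker list was that of the thick ascending limb, with a median of 6684 UMIs per spot. Kap UMIs were thus present where S3 cells should be few, and the part of RNA moving between spots was not tested.

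**Figure D1:**
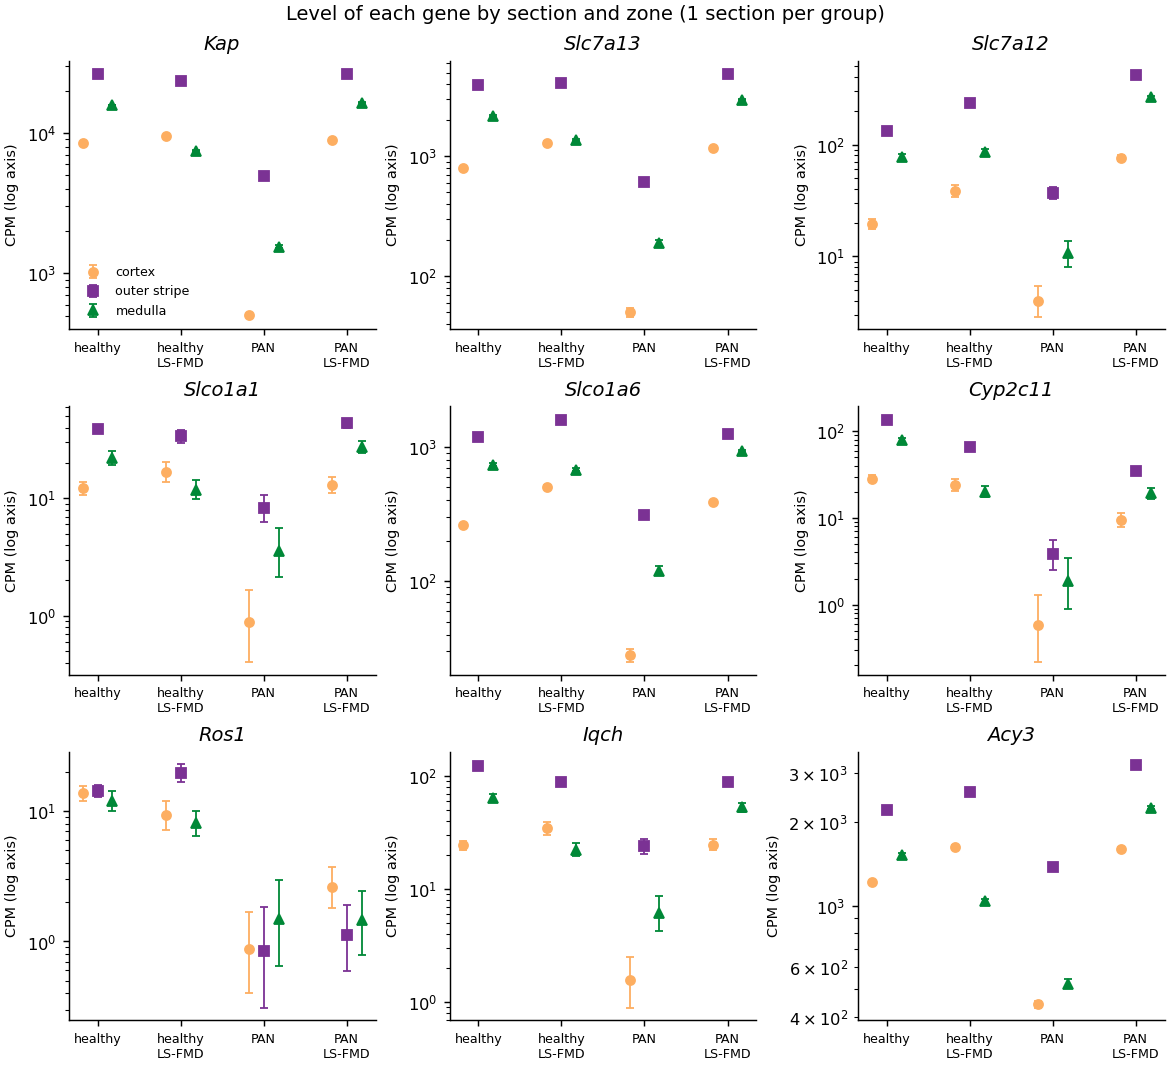
Levels of the 9 genes in CPM on a log axis, by section and zone (circles cortex, squares outer stripe, triangles medulla), with bars for the exact 95% Poisson interval of counting error. The PAN section is the lowest in every zone for each gene but Ros1, the PAN_LS-FMD section lies near the healthy one for most genes, and Ros1 is low in both.

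In the first comparison, PAN against healthy, which asks what set the kidney apart months after the toxin, all 9 genes were lower in the PAN section by the rule used throughout (at least 1.5-fold, with a counting interval that excludes 1). This count was fixed by the way the genes were chosen. Over all genes with at least 20 UMIs in both sections together, 9.85% were lower by the same rule. The median log2 fold was -3.09 over the 9 genes and 0.51 over all 13208 genes measured. Against the healthy_LS-FMD section, which was counted with the same version, all 9 were lower too, beside 12.3% of all genes, by 6.50-fold for Kap, 19.7-fold for Cyp2c11, 12.1-fold for Ros1 and 2.33-fold for Acy3. That count reuses the low PAN values by which the genes were chosen, so it too was fixed in large part. In these sections, fewer cells of a type and less RNA per cell cannot be told apart.

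Kap stood at 17930 CPM in the healthy section, 13320 in the healthy_LS-FMD section, 2049 in the PAN section and 17620 in the PAN_LS-FMD section. The PAN section alone was low, and the PAN_LS-FMD section was within 1.02-fold of the healthy one. PAN was 8.75-fold lower than healthy (8.67 to 8.83), and PAN_LS-FMD was 8.60-fold higher than PAN (8.52 to 8.68). In the outer stripe the levels were 26270, 23410, 4959 and 26480 CPM in the same order of sections, and in the cortex 8526, 9585, 503 and 8948. The outer stripe level was thus 3.08 times the cortical level in the healthy section and 9.85 times (9.57 to 10.2) in the PAN section.

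The amino acid transporter gene Slc7a13 stood at 2530, 2259, 248 and 3087 CPM in the healthy, healthy_LS-FMD, PAN and PAN_LS-FMD sections. It was 10.2-fold lower in PAN than in healthy (9.94 to 10.5) and 12.4-fold higher in PAN_LS-FMD than in PAN (12.1 to 12.8). Its level in PAN_LS-FMD was 1.22-fold that of the healthy section (1.21 to 1.23), short of the 1.5-fold rule. The related transporter gene Slc7a12 followed another order, with 80.2, 119, 15.2 and 260 CPM in the same sections. PAN was again the low one, 5.28-fold below healthy (4.75 to 5.87), but PAN_LS-FMD was 17.1-fold above PAN (15.4 to 19.0) and 3.24-fold above healthy (3.12 to 3.35). That excess was seen in the outer stripe (421 against 132 CPM), the cortex (76.0 against 19.5) and the medulla (263 against 77.2). The healthy_LS-FMD section was 1.48-fold above healthy (1.41 to 1.55), below the 1.5-fold rule, and PAN_LS-FMD was 2.19-fold above healthy_LS-FMD (2.10 to 2.28).

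Both organic anion transporter genes were low in PAN and near healthy in PAN_LS-FMD. Slco1a1 stood at 26.9 CPM in the healthy section, 20.6 in healthy_LS-FMD, 3.77 in PAN (3.05 to 4.62) and 28.6 in PAN_LS-FMD. Slco1a6 stood at 771, 923, 133 and 866 CPM. Slco1a1 was 7.13-fold lower in PAN than in healthy (5.79 to 8.88), and Slco1a6 was 5.81-fold lower (5.60 to 6.02). Against healthy, PAN_LS-FMD differed by 1.06-fold for Slco1a1 (0.982 to 1.15) and by 1.12-fold for Slco1a6 (1.11 to 1.14). These 2 genes, like Slc7a12 and Slc7a13 and like Cyp2c11 and other Cyp2c genes, have close relatives in the genome, and how reads shared by relatives were counted was not given in the sources used here.

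Cyp2c11 was the gene with the largest fold of the 9 between PAN and healthy. It stood at 88.4 CPM in the healthy section, 36.3 in the healthy_LS-FMD section, 1.85 in the PAN section (1.35 to 2.46, from 46 UMIs) and 21.7 in the PAN_LS-FMD section (20.2 to 23.3). The healthy section was the high one, and the other 3 all lay below it. PAN was 47.9-fold below healthy (35.9 to 65.5), and PAN_LS-FMD was 11.7-fold above PAN (8.72 to 16.2). Even so, PAN_LS-FMD held only 24.5% of the healthy level, 4.08-fold lower (3.78 to 4.41). The shortfall was present in the outer stripe (35.2 against 135 CPM), the cortex (9.48 against 28.4) and the medulla (19.4 against 78.9). The healthy_LS-FMD section was itself 2.43-fold below healthy (2.27 to 2.61), and PAN_LS-FMD was 1.68-fold below healthy_LS-FMD (1.52 to 1.85).

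Ros1 was the gene that stayed low in the PAN_LS-FMD section. It had 788 UMIs in the healthy section, 308 in healthy_LS-FMD, 25 in PAN and 60 in PAN_LS-FMD, which gave 13.5, 12.2, 1.00 (0.649 to 1.48) and 1.72 CPM (1.31 to 2.21). Both sections of injected animals were low, and both sections without the toxin were high. PAN was 13.4-fold lower than healthy (9.02 to 20.9), and PAN_LS-FMD was still 7.84-fold lower (6.03 to 10.4). Against PAN, PAN_LS-FMD was 1.71-fold higher, but the counting interval (1.06 to 2.85) reached almost to 1, and in the outer stripe the levels rested on 6 and 13 UMIs. PAN_LS-FMD was also 7.09-fold below the healthy_LS-FMD section (5.36 to 9.51), a section counted with the same version of Space Ranger. Nell2, which encodes a Ros1 ligand, had 1 to 5 UMIs per section, too few to compare.

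Iqch stood at 78.0 CPM in the healthy section, 47.9 in healthy_LS-FMD, 9.19 in PAN and 56.3 in PAN_LS-FMD. PAN was 8.49-fold lower than healthy (7.44 to 9.74), and PAN_LS-FMD was 1.39-fold lower (1.31 to 1.46), inside the 1.5-fold rule. Acy3 had the smallest fold of the 9 between PAN and healthy. It stood at 1702, 1691, 727 and 2364 CPM, so that PAN was 2.34-fold lower than healthy (2.30 to 2.38) and PAN_LS-FMD 1.39-fold higher (1.38 to 1.40). Acy3 was also the gene most evenly spread between outer stripe and cortex after Ros1, with 2194 against 1213 CPM in the healthy section.

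**Figure D2:**
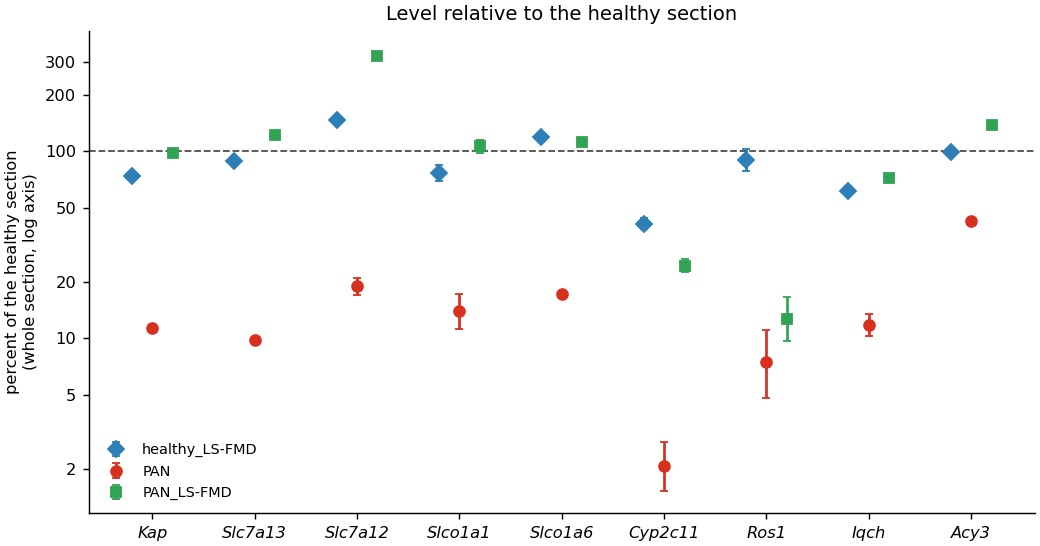
Whole-section level of each gene as a percentage of its level in the healthy section (log axis, dashed line at 100%), for the healthy_LS-FMD, PAN and PAN_LS-FMD sections, with bars for the 95% interval of counting error. In the PAN_LS-FMD section Slc7a12 lies at 324%, Cyp2c11 at 24.5% and Ros1 at 12.8%, and the other 6 genes lie between 72.1 and 139%.

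The comparison of PAN_LS-FMD with PAN asks how the kidney of injected rats differed with the diet. All 9 genes were higher in the PAN_LS-FMD section by the 1.5-fold rule, beside 9.67% of all genes, which again the choice of the genes had fixed in large part. In the medulla 8 of the 9 were higher, beside 10.7%, and Ros1 was not, at 1.45 CPM in PAN_LS-FMD against 1.495 in PAN. Over the whole sections the median log2 fold of the 9 was 2.92, against -0.37 for the 12850 genes measured. Set against the healthy section instead, 2 of the 9 were lower in PAN_LS-FMD (Cyp2c11 and Ros1, beside 4.53% of all genes), 1 was higher (Slc7a12, beside 6.8%), and 6 were neither. The same 3 genes, in the same directions, were the ones outside the rule in the outer stripe, the cortex and the medulla. The shares of all genes lower and higher were 5.39% and 4.49% in the outer stripe, 3.11% and 10.6% in the cortex, and 5.04% and 5.86% in the medulla. The median log2 fold of the 9 against healthy was 0.09, beside 0.11 for all genes. Slco1a1 changed its side of the healthy level with the scaling, to 0.964 times healthy with median-of-ratios size factors.

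The comparison of healthy_LS-FMD with healthy covers a single diet cycle without the toxin. By the same rule 2 of the 9 genes were lower, Cyp2c11 and Iqch (1.63-fold, 1.53 to 1.74), beside 5.27% of all genes, and none was higher, beside 27.1%. With median-of-ratios scaling 4 were lower. More of the healthy_LS-FMD spots were assigned to the medulla than in the other sections, 43.4% against 20.3% in healthy, and the count differed between zones. The medullary zones were not matched. Of the 1125 medullary spots of healthy_LS-FMD, 121 formed a cluster led by Klk1c9 and Calb1, with Kap at 3637 CPM. In healthy, a cluster led by the same genes was assigned to the cortex (324 spots, Kap at 6051 CPM). In PAN_LS-FMD, 162 of 641 medullary spots formed such a cluster. In the medulla 5 of the 9 were lower (Kap, Slc7a13, Slco1a1, Cyp2c11 and Iqch, beside 7.25% of all genes) and none was higher (beside 29.8%), with Kap at 7488 against 15860 CPM. In the outer stripe Cyp2c11 alone was lower (beside 4.45% of all genes) and Slc7a12 alone was higher (233 against 132 CPM, beside 13.8%). In the cortex none of the 9 was lower (beside 5.32%), and Slc7a13, Slc7a12 and Slco1a6 were higher (beside 20.2%). Kap, Slc7a13, Slco1a1 and Iqch were all below the healthy level over the whole section. In spots assigned to the cortex they stood at 1.12, 1.63, 1.38 and 1.42 times the healthy cortical level, and Acy3 at 1.34 times. These cortical zones were not matched. In healthy_LS-FMD, 214 of 797 cortical spots formed a cluster led by Cyp24a1, with Kap at 15830 CPM. In healthy, 179 spots of a cluster with Cyp24a1 among its leading genes were assigned to the outer stripe, with Kap at 24480 CPM. The part of this assignment in the cortical values was not tested. Cyp2c11 stood at 65.4 against 135 CPM in the outer stripe and at 23.9 against 28.4 CPM in the cortex.

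The levels were next set against other proximal tubule RNA in the same spots, since the PAN section had less of it. The reference was the summed UMIs of 20 markers of S1, S2 and S3 that include none of the 9 genes, and that sum was 0.582 times as high in PAN as in healthy. Slc3a1 alone supplied 22.7 to 46.4% of it across sections. Per reference UMI, 8 of the 9 genes were still at least 1.5-fold lower in PAN than in healthy, beside 3.16% of all genes. Without Slc3a1 in the reference all 9 were, beside 4.78%. Both counts reuse the PAN and healthy values by which the genes were chosen, so they were fixed in large part and are a description only. Kap stood at 19.7% of its healthy level on this scale, Slc7a13 at 16.9%, Slc7a12 at 32.6%, Slco1a1 at 24.1% and Slco1a6 at 29.6%. Cyp2c11 stood at 3.59% (2.63 to 4.80), Ros1 at 12.8% (8.25 to 19.1) and Iqch at 20.3%. Acy3 stood at 73.5% (72.3 to 74.6), inside the rule. In PAN_LS-FMD the same scale gave 92.7% for Kap, 305% for Slc7a12, 23.1% for Cyp2c11, 68.1% for Iqch and 12.03% for Ros1. Ros1 per reference UMI was 0.939 times as high in PAN_LS-FMD as in PAN (0.580 to 1.56), so on this scale a difference between them was not detectable at this depth.

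The zones differed in how far the levels were down. For 8 of the 9 genes, all but Ros1, the ratio of outer stripe to cortex was larger in the PAN section than in any of the other 3. So it was for 46.7% of all genes measured in these zones, and for 24.7% of those at least 1.5-fold higher in the outer stripe of the healthy section. The genes were chosen partly for low levels in PAN cortical spots, which raises this ratio, so it is a description only. For Slc7a13 it was 12.4 (11.3 to 13.6) in PAN against 4.92 in healthy, for Slco1a6 11.1 (9.81 to 12.6) against 4.54, for Iqch 15.5 (9.24 to 27.6) against 5.06 and for Acy3 3.10 (2.99 to 3.21) against 1.81. For Cyp2c11 and Slc7a12 the counting interval of the PAN ratio reached down to the healthy value or below it. Kap in PAN cortex, at 503 CPM, was 5.91% of its healthy cortical level, and in the PAN outer stripe 18.9% of the healthy level there. The zones of PAN and healthy were not matched. Of 1023 PAN cortical spots, 225 formed a cluster led by Car3, Ankrd1 and Postn, with Kap at 402 CPM. Another 139 formed a cluster led by Havcr1, while a Havcr1-led cluster of healthy was assigned to the outer stripe. In 344 PAN cortical spots led by Slc22a8 and Pck1, Kap stood at 661 CPM. The part of this assignment in the values was not tested.

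Within the PAN outer stripe the reduction was uneven. The summed level of the 9 genes over its 723 spots had a 10th percentile of 2022 CPM, a median of 4832, a 90th percentile of 13120 and a maximum of 28120. Over the 1014 outer stripe spots of the healthy section the same values were 26740, 33830, 40620 and 48880. The 90th percentile was 2.715 times the median in PAN and 1.201 times in healthy. No PAN spot reached the 25th percentile of healthy outer stripe spots, 30030 CPM: 0 of 723 in the outer stripe and 0 of 2724 in the whole section. For scale, 3 spots would be 0.415% and 0.110% of these. Spots of 1 section are not replicates, so the shares describe this section only. By contrast, 59 PAN outer stripe spots (8.16%) lay at or above the lowest healthy one, at 13830 CPM, so the sections overlapped in the tails of their spots. In the PAN_LS-FMD section 449 of 554 outer stripe spots reached 30030 CPM, and the lowest of the 554 stood at 18050 CPM. Spots outside the outer stripe reached 30030 CPM too. In PAN_LS-FMD these were 148 of 641 medullary and 72 of 80 blood-rich spots. In healthy they were 57 of 583 medullary, 2 of 277 blood-rich and 1 of 992 cortical spots.

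The result differed between genes. Without Kap, which dominates the sum, 5 of 723 PAN outer stripe spots reached the corresponding healthy 25th percentile of 6647 CPM. For Slc7a13 alone 5 spots did, for Slco1a6 24, and for Acy3 111. Depth moved with these levels, as the median was 8808 UMIs per outer stripe spot in PAN and 23360 in healthy. In PAN, Kap stood at 5705 CPM in the 362 deeper outer stripe spots and at 3298 in the 361 shallower ones, against 26640 and 25680 CPM in the healthy section.

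**Figure D3:**
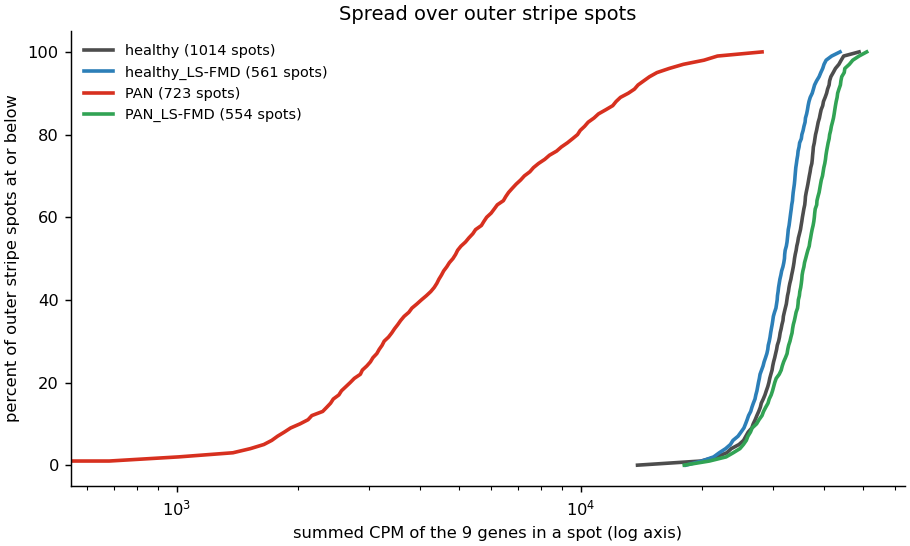
Cumulative share of outer stripe spots (percent, vertical axis) at or below a summed CPM of the 9 genes (log axis) in each section. The PAN curve runs from under 1000 to 28120 CPM, and the 3 other curves lie close together, with medians of 31950 to 36050 CPM.

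To compare spread at equal depth, each spot was thinned to 3000 UMIs, which left out 27 outer stripe spots in PAN, 3 in PAN_LS-FMD and none in the other sections. The coefficient of variation of Kap beyond Poisson counting noise was 0.828 in the PAN outer stripe, 0.164 in healthy, 0.161 in healthy_LS-FMD and 0.172 in PAN_LS-FMD. Slc7a13 had 1.02 in PAN and 0.246 in healthy, Slc7a12 1.59 and 0.556, Slco1a6 0.713 and 0.265, and Acy3 0.400 and 0.165. All 5 genes with enough UMIs for this measure had a larger coefficient in PAN than in healthy, as did 45.5% of 5695 genes measured alike in a second random thinning, whose median was 0.214 in PAN and 0.121 in healthy. In that thinning the coefficient of Slc7a12 was 1.23 in PAN and 0.772 in healthy. The share of genes with a larger PAN coefficient was 5.004% for Kap, 2.21% for Slc7a13, 0.860% for Slc7a12 and 6.39% for Slco1a6. For Acy3 it was 28.7%, so its spread did not stand out in the same way. By the first thinning the PAN_LS-FMD coefficient of Slc7a13 was 0.254 and that of Acy3 0.0768. The remaining 4 genes had under 50 thinned UMIs in the PAN outer stripe.

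The same unevenness appeared when spots were ranked by the other 8 genes, so that a gene did not rank itself. Each gene was scaled to its own mean over the spots of the section before the sum. With that scaling 1 UMI of a scarce gene, such as Ros1 in PAN, carries a large weight in the ranking. The top 10% of all PAN spots held 39.7% of the Kap UMIs (39.2 to 40.1) and 12.5% of all UMIs, while the top 10% of healthy spots held 18.3% of the Kap UMIs and 11.9% of all UMIs. For Slc7a13 the shares were 46.3% in PAN and 19.99% in healthy, and for Slc7a12 47.5% and 18.5%. For Cyp2c11 they were 52.2% (37.0 to 67.1) and 19.2%, and for Acy3 25.5% and 15.3%. Ros1 did not follow the others: 1 of its 25 PAN UMIs lay in the top 10% of spots (4.0%, 0.101 to 20.4), against 12.9% in healthy.

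Clustering, which did not use the 9 genes, divided the PAN outer stripe into 2 clusters. The smaller had 184 spots with a median of 12110 UMIs, and Slc7a13, Kap, Slco1a6, the histamine-degrading enzyme gene Hnmt and Rgn were among its leading genes. The larger had 539 spots with a median of 8073 UMIs and was led by the transferrin gene Tf, Slc51b and the angiotensinogen gene Agt. Kap stood at 8890 CPM in the smaller and at 2967 in the larger, a ratio of 2.996 (2.93 to 3.06). These were 33.9% and 11.3% of the healthy outer stripe level. All 59 spots that reached the lowest healthy spot lay in the smaller cluster. The smaller cluster, 6.75% of the section's spots, held 41.7% of its Kap UMIs, 46.9% of Slc7a13, 49.9% of Slc7a12 and 25.2% of Acy3.

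The ratio of the smaller to the larger cluster was 3.85 for Slc7a13 (3.61 to 4.10), 5.04 for Slc7a12 (3.83 to 6.69), 3.17 for Slco1a6 (2.91 to 3.46) and 2.88 for Slco1a1 (1.66 to 5.06). It was 6.91 for Cyp2c11, with a wide interval of 2.70 to 20.9, 2.38 for Iqch (1.74 to 3.25) and 1.73 for Acy3 (1.66 to 1.80). Slc7a12 in the smaller cluster reached 60.0% of the healthy outer stripe level (51.6 to 69.6), Slco1a6 48.3% and Acy3 86.9%. Cyp2c11 reached only 6.48% (4.01 to 9.93). Ros1 had 0 UMIs in the smaller cluster, where 3 counts would be 1.25 CPM or 8.74% of the healthy level, and 6 UMIs in the larger. All 8 genes with at least 20 UMIs in these clusters were thus at least 1.5-fold higher in the smaller one, beside 3.01% of all genes, in unequal measure, and no Ros1 was detected there.

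Other gene groups moved with these clusters. The 10 S3 markers summed to 7110 CPM in the smaller cluster and 4485 in the larger. The ratio was 1.59, below the ratios of the 9 genes other than Ros1. Slc3a1 alone supplied 4387 and 2425 CPM of these sums, so the ratio rests largely on that gene and does not hold for each single marker. The injury list summed to 14410 and 22930 CPM, matrix genes to 1892 and 2889, and macrophage genes to 5373 and 7488. Spp1 stood at 10910 against 17850 CPM, and Havcr1 at 125 against 260. The injury sum of the smaller cluster was still far above the 1050 CPM of the healthy outer stripe. The part of injury, depth or other cell types in the difference was not tested.

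**Figure D4:**
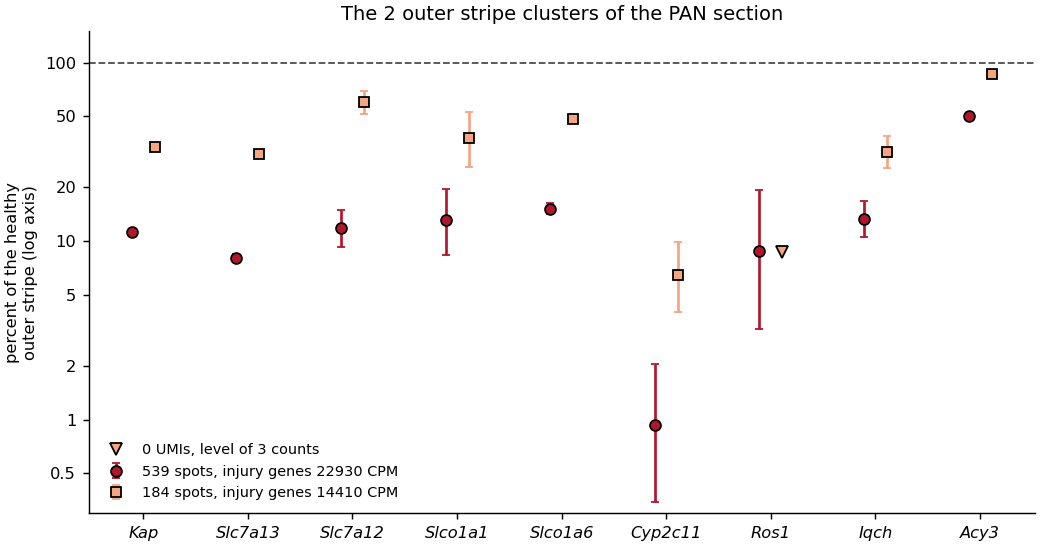
Level of each gene in the 2 outer stripe clusters of the PAN section, as a percentage of the healthy outer stripe (log axis, dashed line at 100%), with bars for the 95% interval of counting error and a triangle at the level of 3 counts where a gene had 0 UMIs. The smaller cluster (squares, 184 spots) lies above the larger (circles, 539 spots) for each gene but Ros1, and its levels run from 6.48% for Cyp2c11 to 86.9% for Acy3.

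The cortical and outer stripe spots of each section were then ranked by the summed level of 15 injury genes and divided into 5 groups of equal size, each with 20% of the spots. In the PAN section Kap stood at 5112, 2434, 1633, 1245 and 791 CPM from the lowest to the highest group, a ratio of 6.46 between the ends (6.21 to 6.72). Slc7a13 ran from 650 to 85.0 CPM (ratio 7.65, 6.79 to 8.65) and Acy3 from 1285 to 506 (2.54, 2.41 to 2.68). All 8 genes with enough UMIs were at least 1.5-fold higher in the lowest group than in the highest, with an interval excluding 1, beside 5.19% of all genes, and the summed S3 markers had a ratio of 1.69. Ros1 had 3 UMIs in each of the end groups.

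The ranking also sorted spots by zone, since 56.3% of the spots in the lowest PAN group and 30.7% in the highest were outer stripe. In PAN_LS-FMD, where those shares were 72.8% and 7.85%, the Kap ratio was 2.87 (2.83 to 2.90), and in healthy, with 56.7% and 37.4%, it was 1.54 (1.53 to 1.55). For Slc7a12 the ratio was 5.92 in PAN (3.798 to 9.618) and 5.15 in PAN_LS-FMD (4.56 to 5.83). The part of the zones in these ratios was not tested. The median injury level of the lowest PAN group, 13060 CPM, was above that of the highest group in healthy, 1730 CPM, so the sections did not overlap in these medians.

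**Figure D5:**
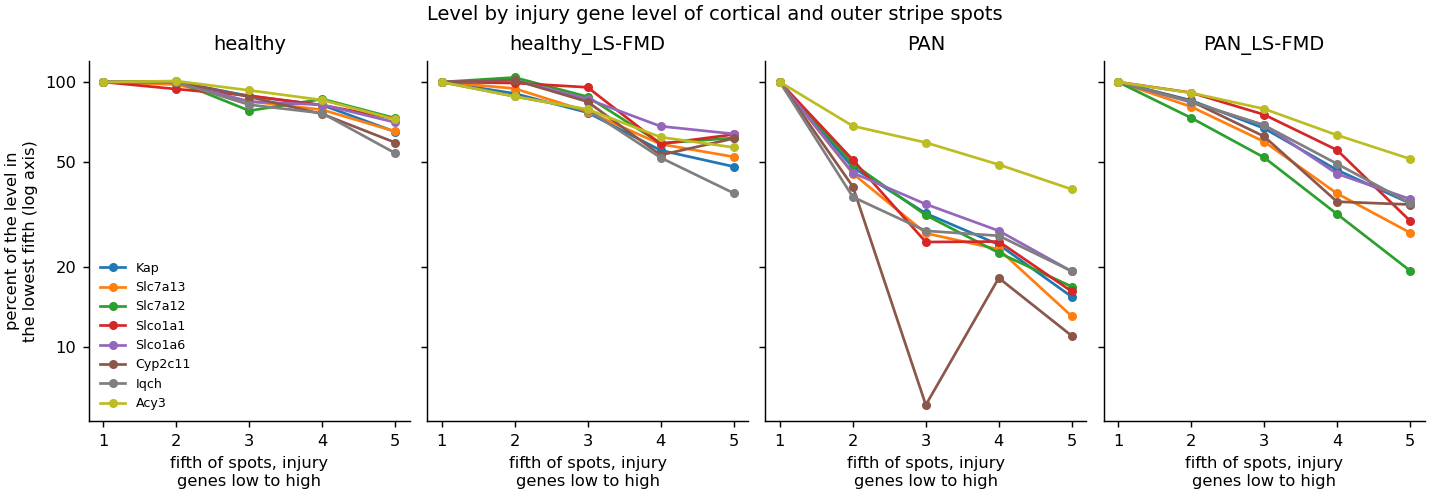
Level of 8 of the 9 genes (Ros1 left out for its few UMIs) in 5 equal groups of cortical and outer stripe spots ranked by injury genes, as a percentage of the lowest group (log axis), 1 panel per section. In PAN, Kap in the highest group is 6.46-fold below the lowest and Acy3 2.54-fold below, and in the healthy section the decline of Kap is 1.54-fold.

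Genes of the same pathways and families gave a mixed picture. Slc3a1, the heavy chain of Slc7a13, stood at 4529, 4905, 1667 and 4690 CPM in the healthy, healthy_LS-FMD, PAN and PAN_LS-FMD sections, 2.72-fold lower in PAN than in healthy. It was the only 1 of 11 measured relatives in the Slc7 and Slc3 families that was lower in PAN, beside 9.85% of all genes. Of the others 7 were higher (beside 44.3% of all genes), among them Slc7a7 of the y+L system (61.0 against 16.1 CPM), and 3 were neither. Of 8 measured Slco genes other than the members, 2 were lower (beside 9.85% of all genes) and 4 higher (beside 44.3%). Slco4c1, a basolateral organic anion transporter of the proximal tubule, stood at 36.2, 44.6, 8.55 and 37.0 CPM in the 4 sections. Slco4a1 was 8.90-fold higher in PAN than in healthy, and it was 13.2-fold higher in healthy_LS-FMD too.

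The other Cyp2c genes did not follow Cyp2c11. Cyp2c23 stood at 1365 CPM in healthy, 1103 in PAN and 2106 in PAN_LS-FMD, and Cyp2c24 at 36.2, 38.8 and 44.8, so that neither was lower in PAN by the rule, although Cyp2c23 was with median-of-ratios scaling. All 4 measured acylase genes were lower in PAN, as Acy3 was, beside 9.85% of all genes. Acy1 stood at 2041 CPM in healthy, 1224 in PAN and 2692 in PAN_LS-FMD, and the fold was 2.57 for Pm20d1, 2.17 for Abhd14a and 1.88 for the aspartoacylase gene Aspa. Of the 10 S3 markers, 6 were lower in PAN (beside 9.85% of all genes), 1 was higher (Cyp7b1, beside 44.3%) and 3 were neither, with a median log2 fold of -0.68. With median-of-ratios scaling the counts lower and higher in PAN became 2 and 5 for the Slc7 and Slc3 relatives, 3 and 4 for the Slco genes and 7 and 1 for the S3 markers.

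Regulators known to act on sex-dependent or proximal genes were measured as background. Of 12 measured genes of androgen, growth hormone and prolactin signalling, 3 were lower in PAN, 4 were higher and 5 neither, with a median log2 fold of 0.17. Over all genes 9.85% were lower and 44.3% higher, with a median of 0.51. The growth hormone receptor gene Ghr stood at 16.0 CPM in healthy, 6.42 in PAN and 16.2 in PAN_LS-FMD, and the prolactin receptor gene Prlr at 60.6, 26.3 and 62.0. Of 10 proximal transcription factors, 2 were lower in PAN and 1 was higher, beside the same shares of all genes. Hnf4a stood at 356, 268 and 462 CPM in healthy, PAN and PAN_LS-FMD, short of the rule. Cebpa was higher in PAN, at 59.5 against 17.8 CPM. Median-of-ratios scaling left 1 of the 12 signalling genes higher in PAN, Jak2, and put Hnf4a among 5 transcription factors that were lower. Alb, the defining gene of hepatocytes, in which Cyp2c11 is best known, had 0 to 5 UMIs per section. Of the 6 hepatocyte genes measured, 5, among them Tf, were higher in PAN, beside 44.3% of all genes. The list summed to 720 CPM in PAN against 516 in healthy.

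In the whole PAN section, genes of other cell types and states moved along with the 9. The summed injury list stood at 22470 CPM there against 1257 in healthy, 2622 in healthy_LS-FMD and 1217 in PAN_LS-FMD. Of 13 measured injury genes, 11 were higher in PAN than in healthy (10 with median-of-ratios scaling), beside 44.3% of all genes. The same share stands beside the matrix and macrophage counts that follow. All 12 matrix genes were higher, with sums of 434 to 608 CPM in the other 3 sections and 2954 in PAN. All 11 macrophage genes were higher, with sums of 1398 to 1706 and 7999 CPM. Their part in the lower level of the 9 genes was not tested, beyond the values given per proximal reference UMI. Haemoglobin and other red cell genes summed to 8818 CPM in healthy and to 925 to 1519 CPM elsewhere, and leaving them and mitochondrial genes out of the scaling changed none of the counts of the 9 genes in the 4 main comparisons.

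The profile of the 9 genes over 12 points (cortex, outer stripe and medulla of each section) was compared across genes, as a description. The points share sections and depth, and they include the cortical values by which the 9 genes were chosen, which raises the correlations among them. The correlation of a gene with the mean of the other 8 on the log2(CPM + 1) scale was 0.989 for Kap, 0.988 for Slc7a13, 0.987 for Slco1a1, 0.982 for Iqch, 0.973 for Slco1a6, 0.920 for Acy3, 0.912 for Cyp2c11 and 0.872 for Slc7a12. For Ros1 it was 0.495. Among 8730 other genes with at least 200 UMIs in the healthy section and no provisional symbol, the 10 most alike were Rgn (0.998), Prss30, Slc38a3, Akr1c12l1, Slc23a1, Elfn1, Coasy, Cisd1, Cth and Gucy1b2 (0.976). Rgn, which encodes the calcium-binding protein regucalcin, stood at 788, 584, 95.3 and 650 CPM in the healthy, healthy_LS-FMD, PAN and PAN_LS-FMD sections. Slc38a3, a glutamine transporter gene, stood at 536, 561, 123 and 627 CPM, and Slc23a1, a vitamin C transporter gene, at 62.6, 63.8, 15.5 and 48.8.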

How the data were processed

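The deposited matrices hold counts, whole-number UMI counts per gene and spot with no normalisation, which the authors made with Space Ranger 2.0.1 (healthy section) and 1.2.1 (the other 3), per the file headers. The build and the annotation used for counting are not given in the sources used here. Spots under 500 UMIs were left out (2 to 5 per section), with no doublet caller and no image or position used. Barcodes found in more than 1 section (1221 in all 4) are positions of the slide design. UMIs were summed over spots, divided by all UMIs of those spots and given as CPM with exact Poisson intervals. Folds have exact intervals of 2 Poisson counts, and shares exact Clopper-Pearson intervals, all for counting error at 95%. A gene was called at 1.5-fold with an interval excluding 1, given at least 20 UMIs over both sections. A gene or group at 0 was set against 3 counts.

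Each section was clustered alone with scanpy 1.11.5 (counts per 10000, log-transformed, 2000 variable genes without the 9 members, 30 principal components, 15 neighbours, Leiden resolution 1, igraph 0.11.9, numpy 2.4.6, Python 3.11.15). A cluster took the zone of the marker list with the highest mean log2(CPM + 10), centred over the clusters. In simulated Poisson counts the fold calls and their intervals recovered known folds. Clustering, zone assignment, thinning and rankings were not simulated. Named genes were the members, injury markers, sex-linked genes, the fixed pathway and family lists and the 10 genes with the most alike profile. The leading genes of clusters were named after their values were seen. The members and all lists were chosen with earlier results of these data known. Alternatives were other scalings, zones, clusterings, depths, references and call rules.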

Additional observations from a re-analysis of the deposited data

How the results depend on the processing

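With 1 section per group no section could be left out. No paired analysis was possible because each group had 1 section. All 9 genes were lower in PAN than in healthy under each alternative scaling, zone, spot filter, call rule and reference section, and 8 were when set against other proximal genes. The choice of the genes had fixed these counts in large part. Between PAN_LS-FMD and PAN, 9 genes were higher under most alternatives. The count was 8 with a 2-fold rule, in medullary spots, where the fold of Ros1 was 0.971, and where 8 were measured (outer stripe spots, or at least 100 UMIs). Scaling by median-of-ratios size factors moved every log2 fold by -0.47 for PAN against healthy, 0.33 for PAN_LS-FMD against PAN, -0.14 for PAN_LS-FMD against healthy and -0.34 for healthy_LS-FMD against healthy. With it 3 genes rather than 2 were lower in PAN_LS-FMD than in healthy. The count of genes lower in healthy_LS-FMD than in healthy differed by more than 1.5 times. It was 2 in the main setting, 4 with median-of-ratios scaling, 1 in outer stripe spots, 0 in cortical spots, 5 in medullary spots and 1 with a 2-fold rule, and the cause was not tested. The fold of Iqch in that comparison turned to 1.42 in cortical spots. Of 313 folds of single genes under the alternatives, 148 stayed within their counting interval, 163 moved out of it, and 2, the Ros1 and Iqch values above, changed side where the main value passed the 1.5-fold rule. In all, 19 of the 313 changed side, called or not. The medullary spots, the reference without Slc3a1 and the thresholds at the lowest and the 10th percentile of healthy spots were added after seeing the data. Depth limited Ros1, Slco1a1, Cyp2c11 and Iqch in the PAN section.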
